A study of Arabidopsis thaliana with 12 samples.

Results

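Rosette messenger RNA of an Arabidopsis thaliana line that overexpresses LSD1 fused to green fluorescent protein was compared with that of its wild type, gene by gene. The comparison used 6 of the 12 libraries of the series, 3 labelled 35S:LSD1-GFP (LSD1-GFP below) and 3 labelled wild-type Ws-0, taken by their sample labels. Both groups are of the Wassilewskija accession, were 2 weeks old, and grew on MS medium with a 16 h photoperiod at 100 µmol of photons per square metre and second and 22/18 °C day/night. Neither group was treated with dexamethasone. The fusion is driven by the 35S promoter of cauliflower mosaic virus, which is known to be active in most tissues. Where in the rosette the fusion is made was not measured here. The sources used here do not give the background in which the fusion stands, how many transgenic lines were sampled or the hour of harvest, and a line that makes green fluorescent protein alone was not analysed here. The 3 libraries of a group are biological repeats per the labels, and they are called WT1 to WT3 and GFP1 to GFP3 below by their replicate numbers where 1 of them was left out of the fit.

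LSD1 is a plant protein with zinc finger motifs, known as a negative regulator of programmed cell death: mutants that lack it form lesions that spread beyond the cells in which they start, most readily in long days or under excess light. It is known to bind partners in the cytosol, among them the transcription factor bZIP10 and the metacaspase MC1, and to influence the control of superoxide dismutases and catalases. Overexpression asks the reverse question to loss of the gene, namely which transcripts differ in plants with much more of the protein's message. Effects of the level of LSD1, of the fusion and of other differences between the line and its wild type cannot be told apart here.

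LSD1 itself stood at 22.9, 22.2 and 25.7 CPM (counts scaled to a common library size) in wild-type replicates 1 to 3 and at 2190, 2703 and 2159 CPM in LSD1-GFP. Every LSD1-GFP library lay far above every wild-type library, a 99.7-fold difference (log2 6.64, SE 0.18, adjusted p = 5.55e-11 by edgeR's quasi-likelihood test with Benjamini-Hochberg adjustment, as for all adjusted p below). LSD1 (AT4G20380) lies on chromosome 4, 11004503 to 11006968 on the plus strand of TAIR10.1, and its counts do not separate the transgene's transcript from the resident one. Its tested neighbours were not called: RABE1b, a plastid elongation factor, differed by 0.21 on the log2 scale (SE 0.16, adjusted p = 0.347), AT4G20390 by -0.38 (SE 0.17, adjusted p = 0.108) and the histone demethylase gene JMJ14 by -0.05 (SE 0.10, adjusted p = 0.744). RABE1b had an adjusted p of 0.0358 with replicate number as a block and of 0.0339 without WT3. TSF, a relative of the flowering signal FT that lies between RABE1b and LSD1, had 2 counts in wild type and 0 in LSD1-GFP.

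Of 19487 genes tested, 5662 were called at an adjusted p below 0.05 (29.1%). Among them 3017 rose in LSD1-GFP (15.5%) and 2645 fell (13.6%). Most differences were small: the median size among called genes was 0.55 on the log2 scale, and 83.1% of them were under 2-fold. A change of at least 2-fold was called for 955 genes (4.9%), of which 512 rose (2.63%) and 443 fell (2.27%). At least 8-fold changes were called for 31 genes higher and 16 lower. The libraries of the groups did not overlap for 8295 genes (42.6%). Counts of list members below are to be read against these shares. The lists and their members were chosen with earlier results of these data known, so a share above these is no test of a list. In bulk tissue, more cells of a type and more RNA per cell cannot be told apart.

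**Figure D1:**
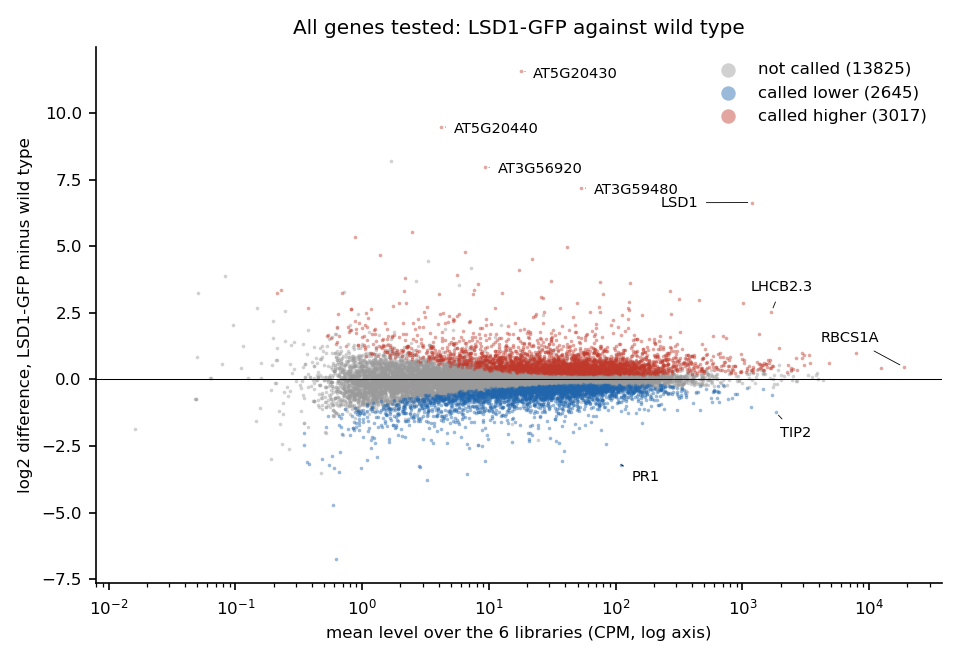
Log2 difference between LSD1-GFP and wild type (vertical axis) against the mean level over the 6 libraries (horizontal log axis, CPM) for the 19487 genes tested, 1 point per gene, coloured by call. Most of the 3017 genes called higher and 2645 called lower lie close to 0, and LSD1 and 5 less abundant genes lie above a log2 difference of 6. For genes with 0 counts in wild type, among them AT5G20430 and AT5G20440, the height is a fitted value and no measured fold.

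The libraries were alike in depth, 9790305 to 10735542 counts in wild type and 10579567 to 11503432 in LSD1-GFP. The scaling factors differed between the groups without overlap, 1.01 to 1.06 in wild type and 0.916 to 0.940 in LSD1-GFP. The 10 most abundant genes took 5.64 to 6.56% of counts in wild type and 6.84 to 7.71% in LSD1-GFP. The leaf markers RBCS1A, RCA, LHCB3, LHCB1.3 and GAPB were abundant in all 6 libraries, as the rosette label states. Root markers were present in both groups: their summed level was 1029 to 1301 CPM in wild type and 1336 to 1983 CPM in LSD1-GFP, and 1 of 7 (IRT1) was called higher, a call lost on leaving out any 1 of the 6 libraries (adjusted p 0.0584 to 0.109) and with no filter on low counts (0.0701). The summed levels did not overlap, and with the replicate block 2 of 7 were called higher, IRT1 (adjusted p = 0.0165) and BGLU23 (0.0137), a beta-glucosidase whose log2 difference without the block was 0.35 (adjusted p = 0.104) and which makes up most of the sum. All 3 seed storage markers had at most 0.201 CPM in sum in any library.

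Nearly all genes for the antenna of the photosystems rose. Light-harvesting proteins bind chlorophyll and pass the energy of absorbed light to the reaction centres, LHCA proteins at photosystem I and LHCB proteins at photosystem II. Of 21 members 19 rose and 0 fell, with a median log2 difference of 0.59 against 0.00 over all genes tested. The summed level of the list was 22820 to 29420 CPM in wild type and 43710 to 49980 CPM in LSD1-GFP. Members differed widely in the size of the rise, and 3 of them stood apart.

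LHCB2.3, a component of the mobile trimeric antenna, stood at 431.6, 511 and 545 CPM in wild type and at 2687, 3005 and 2968 CPM in LSD1-GFP. Its groups were far apart (log2 2.54, SE 0.12, adjusted p = 2.06e-08). LHCB1.4, a further trimer component, rose from 182, 229 and 308 CPM to 1585, 1658 and 2080 CPM (log2 2.89, SE 0.26, adjusted p = 2.18e-05). LHCB4.3, a minor antenna protein that other work links to strong light, rose from 34.5, 32.0 and 40.8 CPM to 137.6, 159 and 151.5 CPM (log2 2.06, SE 0.17, adjusted p = 4.92e-06). The log2 differences of the other members lay between -0.05 (LHCA5, not called) and 1.19. LHCB3 rose by 1.19 (SE 0.11), the photosystem I antenna gene LHCA4 by 0.99 (SE 0.08), and LHCB1.3 by 0.99 (SE 0.13). LHCB1.3 had 4492, 4907 and 6268 CPM in wild type and 9504, 10450 and 11150 CPM in LSD1-GFP. The LHCB1 genes and the LHCB2 genes are near-identical copies, so the split of reads among them is uncertain.

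The carbon-fixing side of photosynthesis moved less evenly. In the list for Rubisco and the Calvin cycle 9 of 21 members rose and 2 fell, with a median of 0.20. The 2 that fell became 1 without WT3, GFP1 or GFP2. RBCS1A, the main gene of the small subunit of Rubisco, made the largest gain in CPM of any gene: 14560, 14100 and 18160 CPM in wild type against 20010, 21230 and 23850 CPM in LSD1-GFP (log2 0.48, SE 0.11, adjusted p = 0.00613). The plastid aldolase genes FBA1 (log2 0.81, SE 0.10) and FBA2 (0.63, SE 0.12) and the Calvin cycle phosphatase genes SBPASE (0.54, SE 0.09) and HCEF1 (0.48, SE 0.09) rose as well. CP12-2, whose protein ties Calvin cycle enzymes into an inactive complex, fell by 0.46 (SE 0.08, adjusted p = 0.00047). RCA, the activase of Rubisco, had the third largest gain, with 9321, 10230 and 12210 CPM against 13540, 13440 and 15490 CPM (log2 0.42, adjusted p = 0.0105), but the call did not hold without WT1 (log2 0.32, adjusted p = 0.0654) or in a fit of the 6 libraries alone (0.0517).

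Genes of chlorophyll synthesis rose in 5 of 12 cases and fell in 0 (median 0.30). The count was 3 without WT1, WT2 or GFP3, 9 without WT3, and 9 with replicate number as a block. HEMA1, which encodes the first committed enzyme of the pathway, stood at 329.6, 323 and 412 CPM in wild type and at 681, 643 and 738 CPM in LSD1-GFP (log2 0.95, SE 0.15, adjusted p = 0.000335). The chlorophyll b enzyme gene CAO rose by 0.32 (SE 0.07) and the light-dependent reductase gene PORC by 0.49 (SE 0.12).

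In the list of photoprotection and light signalling 5 of 13 rose and 1 fell (median 0.25). NPQ4, which senses lumen acidity in the dissipation of excess light, rose from 1086, 1177 and 1240 CPM to 1666, 1708 and 1780 CPM (log2 0.56, SE 0.08, adjusted p = 0.000135). SIG5, a sigma factor that directs plastid transcription and responds to blue light and stress, rose by 0.82 (SE 0.13, adjusted p = 0.000411). The enzymes of the xanthophyll cycle moved in opposite directions. ABA1, which makes violaxanthin, rose by 0.47 (SE 0.08), and NPQ1, which converts violaxanthin back to zeaxanthin, fell by 0.64 (SE 0.11, adjusted p = 0.000826). A further member was called lower without WT3. Of 42 genes encoded in the chloroplast genome that were tested, 0 were called higher and 1 lower (median log2 -0.27), in libraries selected for polyadenylated RNA.

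Antioxidant enzymes that LSD1 is known to influence were taken next. Of the superoxide dismutases, their copper chaperone and the catalases, 4 of 11 rose and 1 fell (median 0.08). CSD1, the cytosolic copper/zinc superoxide dismutase, stood at 35.2, 23.3 and 29.3 CPM in wild type and at 64.6, 42.7 and 62.9 CPM in LSD1-GFP (log2 0.95, SE 0.20, adjusted p = 0.00388). CSD2, its plastid counterpart, stood at 41.8, 31.1 and 39.3 CPM and at 84.3, 49.95 and 84.5 CPM (log2 0.96, SE 0.21, adjusted p = 0.00593). Replicate 2 was the lowest library of both groups for both genes, and the groups did not overlap. MSD1, the mitochondrial manganese enzyme, rose by 0.60 (SE 0.08, adjusted p = 0.000111).

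The catalases, which remove hydrogen peroxide in peroxisomes, did not share a direction. CAT2, the main leaf form, had 3510, 3800 and 4453 CPM in wild type and 3893, 3934 and 4231 CPM in LSD1-GFP, and was not called (log2 0.04, SE 0.10, adjusted p = 0.833). CAT1, the least abundant, was called higher (log2 0.42, SE 0.14, adjusted p = 0.0439), but on leaving out any 1 library except WT3 its adjusted p rose to between 0.0584 and 0.159, and DESeq2 gave 0.0504. CAT3 was called lower (log2 -0.47, SE 0.15, adjusted p = 0.03), a call lost with the replicate block in all 12 libraries (adjusted p = 0.0725) and without WT1 (0.0855), WT2 (0.0757) or GFP2 (0.125).

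The ascorbate and glutathione cycle, which removes hydrogen peroxide in chloroplasts and cytosol, was called higher more broadly, with 12 of 23 members higher and 2 lower (median 0.27). The counts were 16 and 2 with the replicate block. DHAR1, a dehydroascorbate reductase that regenerates ascorbate, rose from 105, 104.6 and 98.3 CPM to 249, 364.6 and 269.8 CPM (log2 1.52, SE 0.15, adjusted p = 1.16e-05). The related DHAR3 rose by 0.73 (SE 0.08) and the monodehydroascorbate reductase gene MDAR1 by 0.81 (SE 0.09). VTC2, which encodes the controlling enzyme of ascorbate synthesis, rose from 1136, 1307 and 1217 CPM to 1739, 2042 and 1748 CPM (log2 0.60, SE 0.09), and its paralog VTC5 rose by 0.67 (SE 0.12). The stromal peroxidase gene SAPX rose by 0.56 (SE 0.09).

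Among LSD1's known partners and relatives and other cell death genes, 4 of 18 were called higher and 2 lower (median 0.11). Together these are 33.3%, near the 29.1% of all genes tested. The 4 became 2 without WT1, GFP1 or GFP2, and the 2 became 1 without GFP2. MC1, the metacaspase that promotes cell death in the absence of LSD1, was not called, with 29.4, 24.95 and 29.0 CPM against 26.7, 29.8 and 29.7 CPM (log2 0.05, SE 0.10, adjusted p = 0.759). MC2, described as its antagonist, fell from 9.35, 5.65 and 7.47 CPM to 2.52, 1.89 and 2.84 CPM (log2 -1.63, SE 0.23, adjusted p = 0.000169). BI-1, a cell death suppressor of the endoplasmic reticulum, rose by 0.64 (SE 0.14) and the metacaspase gene MC4 by 0.30 (SE 0.07). BZIP10 was called higher (log2 0.25, SE 0.08, adjusted p = 0.0361), but not without WT1, WT3, GFP1 or GFP2 (adjusted p 0.067 to 0.136). Its call was also lost in the 6 libraries alone (0.0869), with no low-count filter (0.0611) and by DESeq2 (0.059). LOL1, a positive regulator of cell death related to LSD1, had 23.1, 23.3 and 22.4 CPM in wild type and 19.3, 12.6 and 15.4 CPM in LSD1-GFP. It was called lower (log2 -0.54, SE 0.15, adjusted p = 0.0157) but not without GFP2 (log2 -0.40, adjusted p = 0.079). BAP2, with 3 counts in wild type and 20 in LSD1-GFP, was called higher (adjusted p = 0.0477). That call was lost on leaving out any 1 library (adjusted p 0.0635 to 0.132), with no low-count filter (0.0546), with the stricter filter (0.0569) and by limma voom (0.155).

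Salicylic acid is the hormone of defence against biotrophic pathogens. Of 29 tested genes of its synthesis and response 2 were called higher and 5 lower (median -0.04), together 24.1% beside 29.1% of all genes tested. The counts were 5 and 5 with the replicate block. The 2 became 4 without WT3 or GFP3, and the 5 became 3 without WT1 or GFP3. PR1, the widely used marker of this response, stood at 303.9, 112.5 and 178 CPM in wild type and at 31.0, 12.1 and 21.8 CPM in LSD1-GFP. The lowest wild-type library lay above the highest LSD1-GFP library, a 9.17-fold difference (log2 -3.20, SE 0.74, adjusted p = 0.0111). The other markers were not called: BGL2 had 26.9, 17.1 and 29.5 CPM against 30.2, 18.9 and 24.6 CPM (log2 0.01, SE 0.35, adjusted p = 0.993). PR5 differed by -0.45 (SE 0.28, adjusted p = 0.253), and was called lower without WT2 (log2 -0.71, adjusted p = 0.0428) and with the replicate block in the 6 libraries alone (log2 -0.45, adjusted p = 0.0107), though not with the block in all 12 (0.0606). ICS1, the gene of salicylic acid synthesis in plastids, differed by 0.21 (SE 0.21, adjusted p = 0.493) and was called higher without WT3 (log2 0.49, adjusted p = 0.048). Related WRKY factors went opposite ways: WRKY18 rose from 10.03, 12.9 and 7.75 CPM to 33.1, 23.4 and 22.2 CPM (log2 1.35, SE 0.22), and WRKY60 fell from 20.8, 11.2 and 11.3 CPM to 5.43, 2.93 and 3.86 CPM (log2 -1.83, SE 0.28). NIMIN-3, an interactor of the salicylic acid receptor NPR1, fell by 0.93 (SE 0.10, adjusted p = 2.21e-05).

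Jasmonate, the wound and herbivore hormone, is made from plastid lipids. Of 15 tested genes of its synthesis and turnover 11 rose and 0 fell (median 0.75). AOS, the first committed enzyme, stood at 37.6, 37.7 and 40.5 CPM in wild type and at 114, 121 and 118.5 CPM in LSD1-GFP (log2 1.61, SE 0.08, adjusted p = 2.06e-08). The following enzymes rose less: AOC4, a cyclase, by 0.65 (SE 0.11), OPR3, a peroxisomal reductase, by 0.75 (SE 0.15), and OPCL1, a ligase that precedes beta-oxidation, by 0.73 (SE 0.14). Enzymes that modify or break down the hormone rose too. JMT, which makes methyl jasmonate, went from 0.386, 1.08 and 0.85 CPM to 5.74, 9.08 and 7.01 CPM (log2 3.21, SE 0.29, adjusted p = 5.1e-06), and CYP94C1, which oxidises the active conjugate, rose by 1.99 (SE 0.37).

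The response side was mixed, with 6 of 18 members called higher and 2 lower (median 0.34), and the 6 became 3 without WT1 or WT3. JAZ proteins repress the response and are themselves induced by it. JAZ1 rose from 11.8, 14.6 and 14.6 CPM to 41.5, 35.0 and 29.2 CPM (log2 1.37, SE 0.19, adjusted p = 0.000214). JAZ2 rose by 0.66 (SE 0.12) and JAZ12 by 0.45 (SE 0.09), while JAZ6 fell by 0.53 (SE 0.10) and JAZ3 fell by 0.41 (SE 0.09). MYC2, the transcription factor these proteins repress, was called higher (log2 0.38, SE 0.11, adjusted p = 0.0217), which did not hold without WT1 (adjusted p = 0.122), WT3 (0.0713) or GFP1 (0.0866). In the branch that jasmonate shares with ethylene 1 of 15 was called higher and 3 lower (median 0.00). The 1 higher became 0 without WT1 or GFP1 and 2 with the replicate block or without GFP2. ORA59, the factor that joins the 2 hormones, fell from 4.63, 4.76 and 2.74 CPM to 1.81, 1.23 and 1.42 CPM (log2 -1.44, SE 0.34, adjusted p = 0.00526). PDF1.2, the defensin it controls, had 29.9, 42.2 and 25.0 CPM against 11.4, 4.16 and 8.63 CPM (log2 -2.02, SE 0.57, adjusted p = 0.0276). Its groups did not overlap, but the call did not hold without WT1, WT2, GFP2 or GFP3 (adjusted p 0.0545 to 0.0946), by limma voom (0.0667) or with the replicate block in the 6 libraries alone (0.0829), and its near-identical copies share reads.

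Glucosinolates are sulfur-rich defence compounds of the cabbage order. Those made from chain-elongated methionine, the aliphatic ones, had nearly the whole pathway higher: 21 of 22 genes rose and 0 fell, with a median log2 difference of 0.93. The rise ran from the entry of the pathway to its end. BCAT4, which starts chain elongation by removing the amino group of methionine, rose from 86.7, 93.0 and 99.5 CPM to 174.5, 193 and 209 CPM (log2 1.05, SE 0.12). BAT5, the transporter that carries the intermediates into plastids, had 33.9, 38.1 and 35.6 CPM in wild type and 73.0, 70.0 and 78.9 CPM in LSD1-GFP (log2 1.04, SE 0.08, adjusted p = 1.44e-06). IMD1, a dehydrogenase of the elongation cycle, rose by 1.05 (SE 0.12). CYP79F1, which converts the elongated amino acid to an aldoxime, rose from 75.9, 93.4 and 88.5 CPM to 215, 232 and 247 CPM (log2 1.43, SE 0.15, adjusted p = 2.42e-05). CYP83A1, the next enzyme, rose by 0.94 (SE 0.09) and the glutathione transferase gene GSTU20 by 1.16 (SE 0.13). MYB28, the main activator of the pathway, was called higher by a smaller step, with 38.7, 41.3 and 44.98 CPM against 55.5, 47.6 and 52.2 CPM (log2 0.31, SE 0.10, adjusted p = 0.0351). That call is lost without WT1, WT2, GFP1 or GFP3 (adjusted p 0.0737 to 0.153).

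The branch from tryptophan, which yields indole glucosinolates and camalexin, had 5 of 15 higher and 1 lower (median 0.14). CYP79B2, which makes the shared aldoxime, rose from 17.3, 21.1 and 24.3 CPM to 36.8, 52.6 and 55.2 CPM (log2 1.21, SE 0.16, adjusted p = 0.000121). CYP83B1 rose 2.14-fold, the glucosyltransferase gene UGT74B1 by 1.19 (SE 0.16) and the sulfotransferase gene SOT16 by 1.11 (SE 0.16). IGMT1, which methylates the finished indole compounds, fell by 0.60 (SE 0.13, adjusted p = 0.00387). Supply of sulfate, on which these compounds draw, had 5 of 14 called higher and 2 lower (median 0.35), with 3 higher without WT1, WT3, GFP1 or GFP3. The 2 lower became 1 in the same cases, except that GFP2 took the place of GFP1. APS1, which activates sulfate, rose by 0.70 (SE 0.11), and the root uptake transporter gene SULTR1;2 rose by 0.97 (SE 0.20, adjusted p = 0.00421).

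Of 18 tested flavonoid genes 7 rose and 0 fell (median 0.61). Those that rose lie on the common path and the flavonol branch. TT4, chalcone synthase, which opens the pathway, stood at 57.95, 61.4 and 60.6 CPM in wild type and at 132, 190.0 and 132 CPM in LSD1-GFP (log2 1.34, SE 0.18, adjusted p = 0.000181). FLS1, flavonol synthase, rose from a mean of 12.6 ± 0.65 CPM (SD, n = 3) to 29.7, 44.4 and 31.7 CPM (log2 1.49, SE 0.18). MYB12, the activator of flavonol synthesis, rose by 0.81 (SE 0.16), F3H by 1.07 (SE 0.23) and the flavonoid glucosyltransferase gene UGT78D2 by 0.69 (SE 0.10).

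Cold and drought genes showed some of the largest steps. Among 15 tested cold-response genes 8 rose and 0 fell (median 0.96). COR15A, a chloroplast protein that protects membranes during freezing, stood at 4.92, 6.19 and 4.82 CPM in wild type and at 37.2, 59.4 and 41.5 CPM in LSD1-GFP (log2 3.11, SE 0.28, adjusted p = 1.37e-05). COR15B, its neighbour and close relative, went from 0.868, 0.538 and 0.661 CPM to 8.15, 12.2 and 11.4 CPM (log2 3.92, SE 0.42). The plastid membrane protein gene COR413IM1 rose from 2.80, 2.15 and 2.27 CPM to 25.96, 24.0 and 19.4 CPM (log2 3.26, SE 0.37). RD29A, which responds to cold and drought, rose by 1.79 (SE 0.29). The CBF factors, which induce these genes in the cold, were near the detection limit or not called: CBF1 and CBF3 had too few counts to test, and CBF2 had 4.82, 4.13 and 2.84 CPM against 3.62, 1.61 and 0.914 CPM (log2 -0.94, SE 0.43, adjusted p = 0.117). CBF2 was called lower with the replicate block (adjusted p = 0.0092) and without GFP1 (log2 -1.62, adjusted p = 0.0162).

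In the abscisic acid and drought list 7 of 20 rose and 2 fell (median 0.27). The counts were 11 and 2 with the replicate block. The 7 became 4 without WT3 or GFP1, and the 2 became 1 or 0 without any 1 library. RD29B, a marker of abscisic acid response, went from 1.74, 2.06 and 1.89 CPM to 33.4, 32.2 and 32.6 CPM. The spread within each group was small beside this 17.1-fold step (log2 4.1, SE 0.25, adjusted p = 1.79e-07). P5CS1, which makes proline under stress, rose from 257, 341 and 258 CPM to 901, 845.6 and 881.5 CPM (log2 1.62, SE 0.21, adjusted p = 0.000161). HAI1, a phosphatase of the hormone's pathway, rose by 1.55 (SE 0.25) and ABF3, a transcription factor that binds the abscisic acid response element, by 1.02 (SE 0.22).

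**Figure D2:**
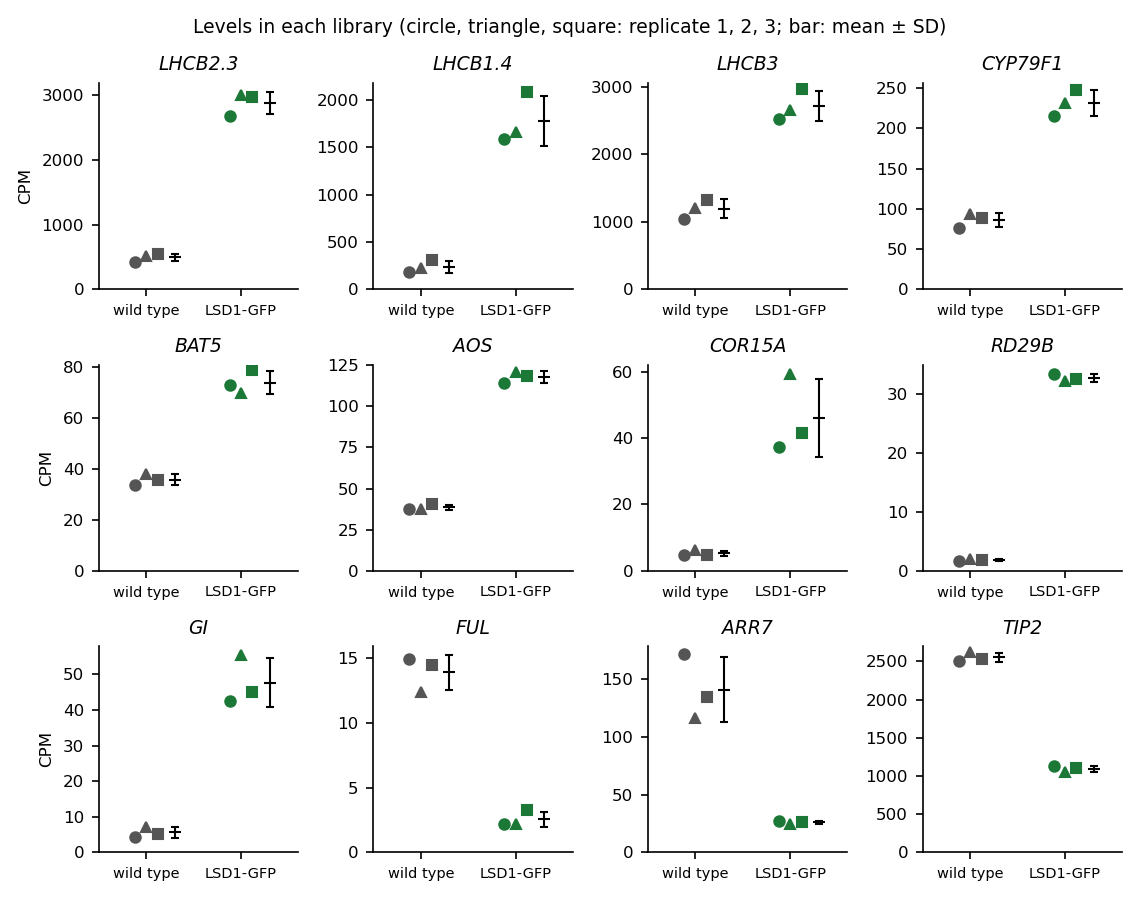
Level of 12 genes in each of the 6 libraries (CPM, vertical axis from 0), wild type in grey and LSD1-GFP in green, with the symbol giving the replicate number and the bar the mean ± SD of 3 libraries. The groups do not overlap for any of the 12 genes, which was a condition of the naming rule for some of them. Among all 5662 called genes the groups do not overlap for 5504. FUL, ARR7 and TIP2 were lower in LSD1-GFP and the other 9 higher.

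Promoters of these genes were read as the 250 bases before the annotated gene start in the TAIR10.1 assembly, which is of the Columbia accession and not of Wassilewskija. The core of the C-repeat, CCGAC on either strand, to which CBF factors bind, occurred in 5 of the 15 tested cold genes (33.3%) and in 12.9% of the 19415 tested protein-coding genes with such a window. The core of the abscisic acid response element, ACGTG, which is part of the G-box CACGTG, occurred in 12 of 20 genes of the abscisic acid list (60.0%) and in 23.8% of all. Among the 7 genes of that list called higher it was in 4 (57.1%), a share close to that of the whole list. It was also in lists of other kinds, with 66.7% of morning clock genes, 53.8% of day and evening clock genes, 42.9% of light harvesting genes and 40.0% of cold genes. It was in 37.4% of the 511 windows of genes called higher at least 2-fold and in 22.0% of the 440 of genes called lower at least 2-fold. The windows of COR15A and RD29B are printed because both genes rose steeply and hold more than 1 match to the motif of their list. Capitals mark CCGAC (or GTCGG, the same letters on the other strand) in COR15A, chr2:17712331-17712580, minus strand, and ACGTG (or CACGT) in RD29B, chr5:21236771-21237020, plus strand.
COR15A: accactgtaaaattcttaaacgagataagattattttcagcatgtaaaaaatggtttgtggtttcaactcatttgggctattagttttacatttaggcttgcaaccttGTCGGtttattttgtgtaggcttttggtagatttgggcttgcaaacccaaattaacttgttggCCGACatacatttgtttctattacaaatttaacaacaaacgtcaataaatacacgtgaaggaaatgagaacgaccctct
RD29B: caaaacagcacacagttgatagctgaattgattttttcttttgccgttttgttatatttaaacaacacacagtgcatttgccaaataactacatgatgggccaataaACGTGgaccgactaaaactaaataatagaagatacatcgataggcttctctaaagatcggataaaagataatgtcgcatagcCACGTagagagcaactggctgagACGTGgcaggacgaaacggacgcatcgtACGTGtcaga
COR15A holds 2 matches and RD29B 4. A match is a description of these letters in the reference genome and not a measured binding site, and shares were not tested.

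The circadian clock is a loop of factors that act in turn over the day, with CCA1 and LHY at dawn, PRR proteins through the day, and GI, TOC1 and LUX toward evening. Since levels of these genes depend strongly on the hour, differences between lines are differences at an hour that is not given in the sources used here. Of 13 tested day and evening genes 6 rose and 1 fell (median 0.47), and of 15 morning genes 3 rose and 4 fell (median -0.18). The 1 day and evening gene that fell was lost without WT1, WT3, GFP1 or GFP2.

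GI, which couples the clock to flowering and other outputs, stood at 4.34, 7.27 and 5.29 CPM in wild type and at 42.6, 55.4 and 45.2 CPM in LSD1-GFP (log2 3.08, SE 0.31, adjusted p = 4.46e-05). PRR5 rose from 2.89, 4.58 and 3.40 CPM to 15.3, 15.1 and 11.8 CPM (log2 1.95, SE 0.21), and PRR7, which acts earlier in the day, rose by 1.68 (SE 0.24). TOC1 rose from 26.0, 28.0 and 23.62 CPM to 57.6, 76.2 and 50.9 CPM (log2 1.25, SE 0.16), and LUX, a member of the evening complex, rose by 1.28 (SE 0.16). The evening complex gene ELF3 rose by 0.49 (SE 0.09).

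At the dawn end LHY fell from 2156, 2129 and 1877 CPM to 1492, 1305 and 1353 CPM (log2 -0.57, SE 0.09, adjusted p = 0.000301). CCA1 had 1261, 1277 and 1073 CPM in wild type and 1031, 997.7 and 843.7 CPM in LSD1-GFP. Its groups did not overlap and it was called lower (log2 -0.33, SE 0.10, adjusted p = 0.027), but not without WT1 (adjusted p = 0.0797), WT2 (0.0971) or GFP3 (0.11). RVE4, a relative of LHY, fell by 0.76 (SE 0.09, adjusted p = 3.78e-05). LNK1, which acts with the RVE factors as a coactivator, rose by 0.85 (SE 0.18). AT5G52660, a morning gene annotated as a homeodomain-like protein, rose by 1.0 (SE 0.12, adjusted p = 4.01e-05). The Dof-type zinc finger gene AT1G69570 of the same list fell by 0.79 (SE 0.13). PRR7, given above as higher, is counted among the morning genes too.

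The evening element AAAATATCT, to which LHY and CCA1 bind, occurred on either strand in the 250 bases before the start of 6 of 13 tested day and evening genes (46.2%), 3 of the 6 that rose among them, and in 2.42% of all tested genes. It occurred in 0 of 15 morning genes. The windows of those 3 are printed with the element in capitals (AGATATTTT is the same element on the other strand): PRR5, chr5:8358547-8358796, minus strand; TOC1, chr5:24674713-24674962, plus strand; and LUX, chr3:17182792-17183041, plus strand.
PRR5: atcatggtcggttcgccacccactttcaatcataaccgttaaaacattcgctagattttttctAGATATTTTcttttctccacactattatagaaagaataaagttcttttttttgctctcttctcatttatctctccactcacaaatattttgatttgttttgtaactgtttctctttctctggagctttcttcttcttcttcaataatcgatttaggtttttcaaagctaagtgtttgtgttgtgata
TOC1: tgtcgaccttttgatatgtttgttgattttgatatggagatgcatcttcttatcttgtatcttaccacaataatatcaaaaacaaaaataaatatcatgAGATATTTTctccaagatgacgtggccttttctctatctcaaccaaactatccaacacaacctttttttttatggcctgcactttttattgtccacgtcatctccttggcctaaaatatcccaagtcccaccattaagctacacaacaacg
LUX: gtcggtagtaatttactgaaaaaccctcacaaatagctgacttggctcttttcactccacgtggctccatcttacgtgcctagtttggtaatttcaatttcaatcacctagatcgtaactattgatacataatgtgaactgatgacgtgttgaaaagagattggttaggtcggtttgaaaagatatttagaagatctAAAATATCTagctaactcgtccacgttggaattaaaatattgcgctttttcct
The element began 187 bases before the start of PRR5, 151 before TOC1 and 53 before LUX. It was in 5.28% of windows of genes called higher at least 2-fold and in 2.5% of those called lower at least 2-fold, without a test.

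Genes that mark the change to flowering were mostly lower in LSD1-GFP. Of 19 tested members 10 fell and 2 rose (median -0.64). The filter on low counts bears on this list, since 4 of its members were called lower when only genes with at least 5 CPM in 3 libraries were tested. FUL, a MADS-box gene of the floral meristem and fruit that is also switched on at the transition, fell from 14.95, 12.4 and 14.5 CPM to 2.21, 2.18 and 3.25 CPM (log2 -2.45, SE 0.17, adjusted p = 4.9e-07). SEP3, a cofactor of floral organ identity, fell from 2.89, 2.60 and 2.65 CPM to 0.503, 0.568 and 0.508 CPM (log2 -2.34, SE 0.29). The age-dependent promoters of flowering SPL3 (log2 -0.70, SE 0.15) and SPL5 (log2 -1.18, SE 0.18) fell, and so did the integrator SOC1 (log2 -0.51, SE 0.09, adjusted p = 0.00107). SVP, a repressor of flowering, rose from 50.8, 54.0 and 47.6 CPM to 106, 118 and 99.4 CPM (log2 1.09, SE 0.11, adjusted p = 1.02e-05). FT, the mobile signal made in leaves, stayed near or under 1 CPM in both groups (log2 -0.64, SE 0.47, adjusted p = 0.337), and the repressor gene FLC had 3 counts in wild type and 0 in LSD1-GFP. Markers of floral organs were close to 0 in both groups, with summed levels of 2.46 to 4.31 CPM in wild type and 1.93 to 2.01 CPM in LSD1-GFP.

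**Figure D3:**
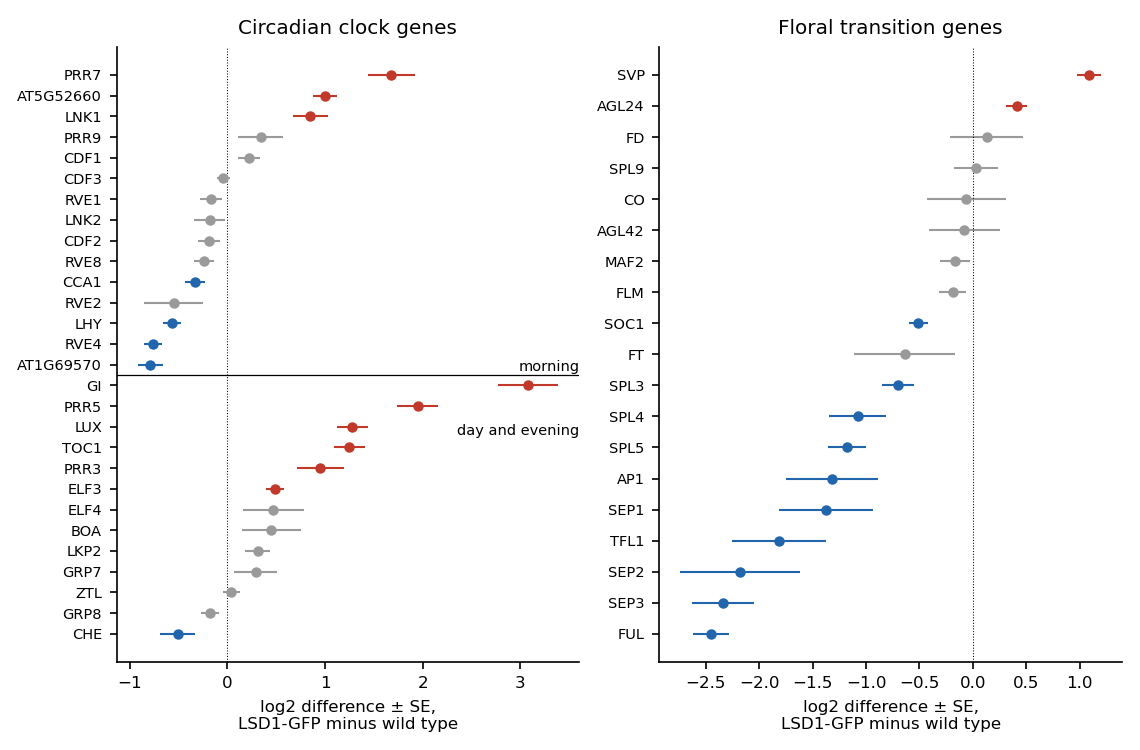
Log2 difference with its SE between LSD1-GFP and wild type for each tested clock gene (left, morning genes above the line and day and evening genes below) and each tested gene of the floral transition (right). Red marks genes called higher, blue genes called lower and grey genes not called. GI has the largest value among the clock genes at 3.08, and 10 of the 19 floral transition genes are blue.

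Heat shock proteins fold other proteins and are induced by heat and other stress. Of 23 tested members 14 rose and 0 fell, and the median of 2.67 was the highest of all lists. It was also 2.67 when the 1 member with 0 counts in wild type was set to its lower bound. With the replicate block 20 members were called higher and 0 lower. HSP70 stood at 55.5, 180.5 and 65.9 CPM in wild type and at 656, 1046 and 700.1 CPM in LSD1-GFP (log2 2.99, SE 0.62, adjusted p = 0.00629). Replicate 2 was the highest library of both groups, and the groups did not overlap. HSP70-2 rose from 7.43, 10.4 and 11.5 CPM to 55.3, 77.8 and 53.7 CPM (log2 2.67, SE 0.26, adjusted p = 3.25e-05). HSP90.2, a cytosolic chaperone, rose from 245.6, 473 and 310.2 CPM to 942, 1172 and 1040 CPM (log2 1.62, SE 0.24), and the constitutive chaperone gene HSP70-1 rose by 0.79 (SE 0.12). The heat shock factor genes HSFB2A and HSFB2B rose by 1.37 (SE 0.23) and 1.16 (SE 0.21). ROF2, an immunophilin that binds HSP90, had 11.5, 37.9 and 9.36 CPM against 190.5, 380.5 and 149.5 CPM (log2 3.61, SE 0.88, adjusted p = 0.0145). Its call did not hold without WT1 (adjusted p = 0.0606) or WT3 (0.0582).

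Further lists had calls in both directions or few calls. In senescence and sugar starvation 2 of 12 rose and 5 fell (median -0.12), with 3 lower without WT1 or GFP3 and 4 higher without WT2. DIN10, a raffinose synthase family gene of dark-treated leaves, fell from 308, 338.5 and 334.7 CPM to 153.5, 158 and 141 CPM (log2 -1.12, SE 0.12, adjusted p = 1.43e-05). ASN1, which makes asparagine in the dark, fell by 0.79 (SE 0.12) and SEN1 fell by 0.98 (SE 0.18), while the chlorophyll breakdown genes PAO (log2 0.65, SE 0.12) and NYE1 (log2 0.75, SE 0.17) rose.

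Among iron genes 5 of 17 were called higher and 2 lower (median -0.03), or 5 and 0 with the replicate block. The 5 became 3 without WT1, and the 2 lower became 0 without WT1, GFP1 or GFP3 and 1 without WT2 or WT3. With at least 5 CPM required in 3 libraries 3 were higher. FER4, a ferritin that binds iron in plastids and mitochondria, rose from 32.1, 30.2 and 35.3 CPM to 114, 79.5 and 124 CPM (log2 1.70, SE 0.15, adjusted p = 6.34e-06), and FER3 rose by 1.06 (SE 0.13). FRO2, the root ferric reductase, rose by 1.14 (SE 0.27, adjusted p = 0.00914), beside the root marker sums given above.

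Phosphate starvation genes split. IPS1 and AT4, non-coding RNAs that sequester the microRNA of phosphate starvation, fell by 1.97 (SE 0.31) and by 1.46 (SE 0.16) on the log2 scale. AT4 had 52.4, 56.4 and 37.6 CPM in wild type and 19.0, 15.9 and 18.18 CPM in LSD1-GFP. PS2, a phosphatase induced by starvation, rose by 1.54 (SE 0.29, adjusted p = 0.00201). The list had 6 of 16 higher and 2 lower (median 0.58), and the 6 became 1 without WT1, 3 without WT3 or GFP1, and 2 without GFP2.

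In cell division 3 of 10 were called higher and 0 lower, which became 1 without WT2 or GFP2. PCNA1, the sliding clamp of DNA replication, rose by 0.63 (SE 0.15, adjusted p = 0.00721). In cell wall and touch response 0 of 10 were called higher and 1 lower by edgeR, namely the expansin gene EXPA1 (log2 -0.89, SE 0.20). Of 6 markers of the stomatal lineage 1 was called higher: TMM, a receptor that spaces stomata, rose from 5.69, 6.01 and 6.99 CPM to 9.26, 13.2 and 12.7 CPM (log2 0.91, SE 0.19, adjusted p = 0.00274). In every list and direction where edgeR called 0 members, limma voom and DESeq2 called 0 as well, and CBF2 and the floral organ gene PI were the members there with an unadjusted p below 0.05, both lower. Both were called lower with the replicate block, PI with an adjusted p of 0.0473 against 0.0676 without it (log2 -0.78), and a member of the flower organ list was also called lower without WT3 or GFP1.

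**Figure D4:**
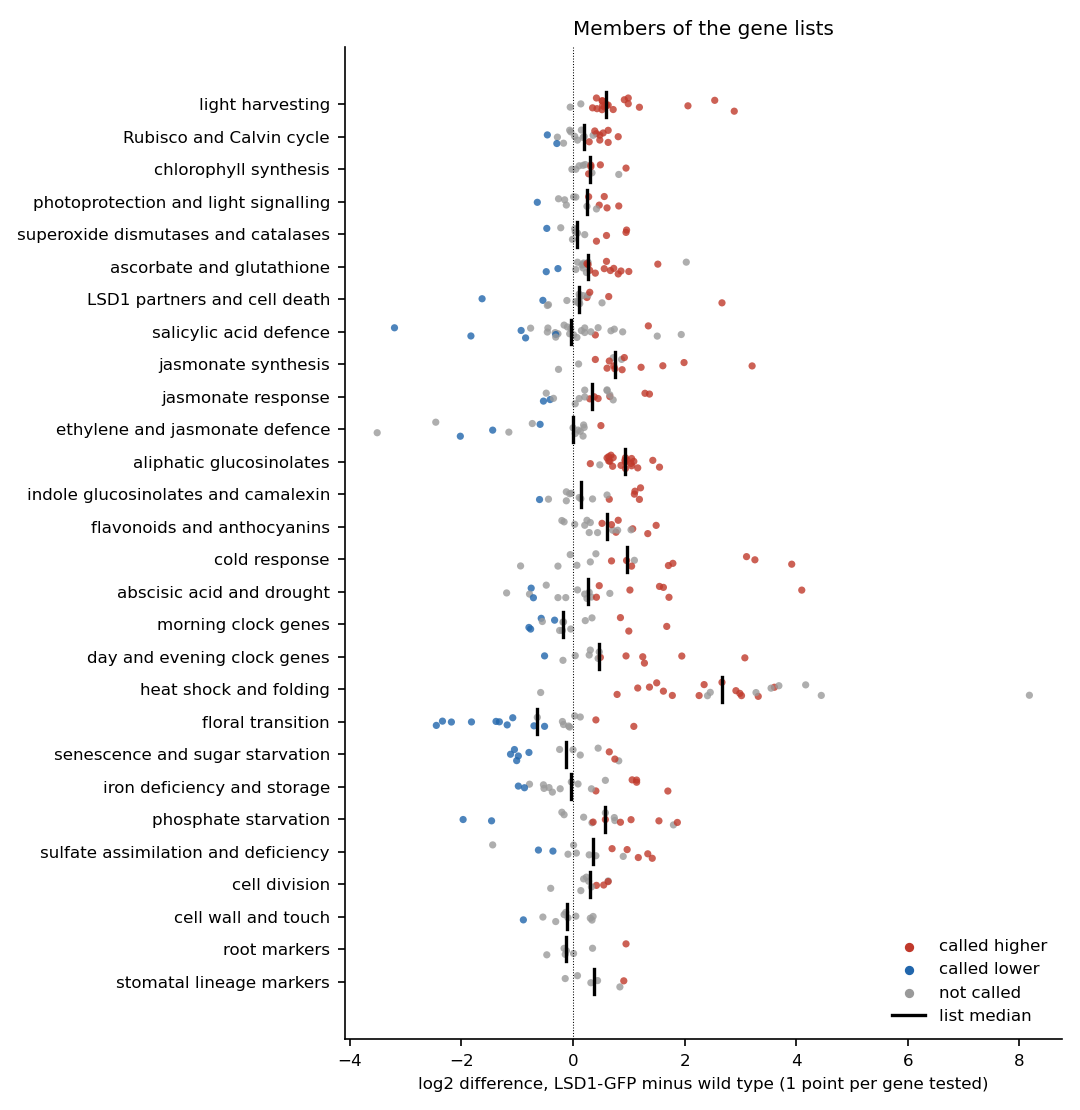
Log2 difference between LSD1-GFP and wild type (horizontal axis) for each tested member of the gene lists (rows), 1 point per gene, red if called higher, blue if called lower and grey if not called, with a bar at the list's median. The aliphatic glucosinolate and light harvesting rows lie almost wholly to the right of 0. The heat shock row has the highest median, 2.67, and the floral transition row the lowest of the rows drawn, -0.64. The flower organ and seed markers, with 1 and 0 members tested, are not drawn.

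Besides LSD1, the largest single changes were mostly in genes of no list. Exceptions were PR1, FUL and some cold, drought and heat genes. AT5G20430 and AT5G20440, annotated as Mob1/phocein family proteins, had 0 counts in all 3 wild-type libraries and 1089 and 257 counts in LSD1-GFP. AT5G20430 stood at 30.5, 45.3 and 31.2 CPM there, at least 383.8-fold higher than wild type, and AT5G20440 at 7.25, 10.7 and 7.31 CPM, at least 90.6-fold higher, against a floor of 3 counts over the wild-type group. Both carry the same family annotation, so reads may be shared between them, which was not tested. Both were also at 0 in lsd1-1 and in the LSD1-GR plants treated with 30 µM dexamethasone. They are neighbours on chromosome 5 and follow CHR42, a chromatin remodelling factor gene, which went from 1.06, 0.987 and 1.70 CPM to 15.7, 14.9 and 14.7 CPM (log2 3.58, SE 0.20, adjusted p = 6.4e-08). With MGD2 before CHR42 (log2 1.04, SE 0.32, adjusted p = 0.024) they make a run of 4 adjacent tested genes called higher at least 2-fold, from 6896463 to 6909996 of TAIR10.1. The call of MGD2, a galactolipid synthase gene, is lost without WT1, GFP1 or GFP2 (adjusted p 0.0757 to 0.114). The next tested genes on either side, AT5G20400 (log2 0.01, adjusted p = 0.962) and AT5G20450 (log2 0.26, adjusted p = 0.412), were not called.

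**Figure D5:**
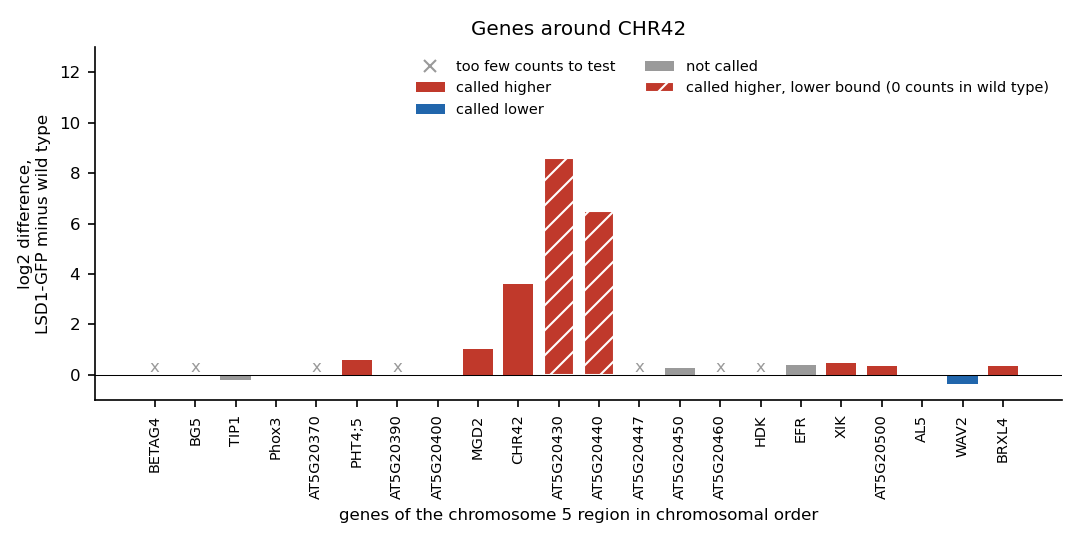
Log2 difference between LSD1-GFP and wild type for the tested genes among 22 in chromosomal order around CHR42, with hatched bars for the genes at 0 counts in wild type, drawn at their lower bounds of 8.58 and 6.50. The 4 adjacent genes MGD2, CHR42, AT5G20430 and AT5G20440 stand out, and the other bars lie between -0.36 and 0.61.

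Other genes changed as steeply away from that place. AT3G59480, annotated as a pfkB-like carbohydrate kinase, went from 0.579, 0.987 and 0.567 CPM to 103, 112.6 and 102.6 CPM, a 145.9-fold difference (log2 7.19, SE 0.16, adjusted p = 1.88e-12). AT3G56920, a DHHC-type zinc finger protein gene, had 2 counts in wild type and 563 in LSD1-GFP, a ratio of 298 (95% counting interval 82.0 to 2464). AT1G11070, a hydroxyproline-rich glycoprotein gene, went from 2.41, 3.05 and 2.08 CPM to 81.6, 83.7 and 75.8 CPM (log2 4.99, SE 0.18). SUC5, a sucrose and biotin carrier known from the seed endosperm, went from 1.74, 1.71 and 1.98 CPM to 37.7, 36.0 and 51.1 CPM (log2 4.52, SE 0.20, adjusted p = 6.24e-09). The CAP160 family gene AT4G25580, a relative of RD29B, rose by 4.80 (SE 0.33).

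Among the falls AACT1, annotated as an anthocyanin acyltransferase, went from 7.14, 21.6 and 8.32 CPM to 0.704, 1.04 and 1.42 CPM (log2 -3.55, SE 0.55, adjusted p = 0.000826). ARR7, a response regulator that damps cytokinin signalling, went from 171, 116 and 134 CPM to 27.0, 24.7 and 26.6 CPM (log2 -2.43, SE 0.16, adjusted p = 6.06e-07). DIN11, an oxygenase family gene, fell by 3.04 (SE 0.48), and AT1G27990 fell by 3.78 (SE 0.80), the largest among the falls the naming rule takes. AT4G33720 and AT4G25780, relatives of PR1, fell by 2.67 (SE 0.52) and by 2.39 (SE 0.26). AT5G35480 and MRU1, neighbours on chromosome 5, fell by 3.05 (SE 0.54) and by 2.48 (SE 0.27). By loss of CPM, TIP2, a water channel of the vacuole membrane, led with 2506, 2622 and 2535 CPM in wild type and 1126, 1051 and 1103 CPM in LSD1-GFP (log2 -1.22, SE 0.08, adjusted p = 4.24e-07). PIP3, a water channel of the plasma membrane, fell from 936.6, 983 and 951 CPM to 571, 559.5 and 607 CPM (log2 -0.72, SE 0.08). SCO1, a plastid elongation factor, fell by 0.68 (SE 0.15).

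Genes of like direction also stood next to each other elsewhere. Among the 952 genes called at least 2-fold with a next tested gene, that gene was called the same way at least 2-fold in 48 cases (5.04%), and 2.63% and 2.27% of all genes were called higher and lower by that measure. Besides the run on chromosome 5 there were 4 runs of at least 3 genes. AT2G29290, AT2G29300, AT2G29310 and AT2G29320, all annotated as NAD(P)-binding Rossmann-fold proteins, fell by 1.45 to 1.72. AT2G29300, the least abundant, lost its call without GFP2 (log2 -1.11, adjusted p = 0.0685). AT1G52000, MBP2 and MBP1, lectins of which the last 2 bind myrosinase, the enzyme that activates glucosinolates, fell by 1.24, 2.00 and 1.38. PMZ, AT3G28220 and AT3G28270 rose by 2.23, 1.53 and 3.68, and the protein kinase genes AT5G38240, AT5G38250 and AT5G38260 fell by 1.18, 2.14 and 1.42. Members of these runs are paralogs in 3 of the 4 cases, so reads may be shared among them.

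Levels in the remaining groups of the series are given for a few of these genes, and their differences from LSD1-GFP were not tested. Those groups are the lsd1-1 mutant and plants with 35S:LSD1-GR, a fusion to a glucocorticoid receptor domain, treated with 30 µM dexamethasone, where LSD1 stood at 178 ± 36.8 CPM (mean ± SD, n = 3). LHCB2.3 stood at 451 ± 46.1 CPM in lsd1-1 and 446 ± 61.5 CPM in LSD1-GR, beside 496 ± 58.3 CPM in wild type and 2886 ± 174 CPM in LSD1-GFP. RD29B stood at 2.62 ± 1.06 and 1.26 ± 0.67 CPM beside 1.90 ± 0.16 CPM in wild type and 32.7 ± 0.63 CPM in LSD1-GFP. CYP79F1 stood at 102 ± 25.9 CPM in lsd1-1 and 197 ± 13.7 CPM in LSD1-GR, beside 85.9 ± 9.04 CPM in wild type and 231.6 ± 16.0 CPM in LSD1-GFP. HSP70 stood at 642 ± 414 CPM and 2273 ± 994 CPM, beside 101 ± 69.3 CPM in wild type and 800.5 ± 214 CPM in LSD1-GFP. GI stood at 19.4 ± 8.07 CPM and 53.5 ± 13.1 CPM, beside 5.63 ± 1.495 CPM in wild type and 47.7 ± 6.80 CPM in LSD1-GFP.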

How the data were processed

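Per the labels, rosette RNA was made into libraries with a kit that keeps strand. What the authors deposited is a table of raw counts of 27416 gene models, not normalized. The submitters' processing notes name Trimmomatic 0.30, GSNAP, HTSeq 0.6.1 and TAIR10; their settings, the strand setting included, are not stated there or in the labels, so reads of overlapping or antisense genes may not be told apart. Symbols and positions came from TAIR10.1, which held 26719 of the loci.

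Counts of all 12 libraries (4 groups of 3) were fitted in R 4.3.3 with edgeR 4.0.16 (filterByExpr, TMM scaling, robust quasi-likelihood; the biological coefficient of variation was 11.2%) and tested two-sided for LSD1-GFP minus wild type over 19487 genes. Genes were called at a Benjamini-Hochberg adjusted p below 0.05. SE is the log2 difference over the square root of F, and levels are TMM-scaled CPM. A group at 0 counts gave a lower bound against 3 counts over the group, and 1 to 3 counts an exact (Clopper-Pearson) 95% interval; both cover counting error only. The procedure was tested on simulated data.

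Replicate numbers come from the labels. Deviations from the group means correlated between same-numbered wild-type and LSD1-GFP libraries (r = 0.208, 0.224 and 0.469 for numbers 1 to 3). For unlike numbers r ran from -0.294 (WT2 with GFP3) to 0.0986 (WT1 with GFP2). The numbers may thus stand for pairs, and a fit with replicate number as a block was set beside the main one. The main fit has no block, and all values not given as with the block come from fits without it. No 2 libraries were alike within sampling noise.

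The 30 gene lists (469 loci, 454 of whose names matched the reference) were written from textbook knowledge, and members and lists were chosen with earlier results of these data known. Genes were named by rule: LSD1 and the 2 genes on each side of it; the 15 largest rises and falls whose libraries did not overlap between groups and whose higher group averaged 5 CPM or more; the 5 largest gains and losses of CPM; up to 6 called members of each list with the lowest adjusted p; runs of at least 3 adjacent genes called the same way at least 2-fold; and a fixed set of markers. Not every such gene is named. AT5G20400 and AT5G20450 were named, as neighbours, after their values were seen. Alternatives were RLE size factors, other filters, the 6 libraries alone, the replicate block, a test against 1.5-fold, each library left out, limma 3.58.1 voom and DESeq2 1.42.0.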

Additional observations from a re-analysis of the deposited data

How the results depend on the processing

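The counts of genes called were 3017 higher and 2645 lower. They fell to 341 and 261 when a difference above 1.5-fold was tested, and lay between 2119 and 2783 higher and 1905 and 2490 lower when 1 library was left out. All other alternatives were within 1.5 times of these counts, and LSD1 was called higher in every one. The test against 1.5-fold also ended the calls of 105 of the genes the naming rule takes. It moved 40 counts of list members by more than 1.5 times, and it is left out of the lost calls described for single genes. With replicate number as a block 3896 were higher and 3413 lower; 5639 of the 5662 calls remained, all in the same direction, 23 were lost and 1670 gained. Among the genes the naming rule takes, the block in all 12 libraries ended the calls of AT5G22430, CAT3, AT1G47400, AT1G47395 and LSU1, added RABE1b and CBF2, and changed no other call. In the 6 libraries alone the block ended the calls of AT1G47400, AT1G47395, LSU1, PDF1.2 and GGCT2;1, but not those of AT5G22430 and CAT3. There it added RABE1b, CBF2 and PR5. Genes that were not called and changed sign were BGL2, with -0.004 with no low-count filter, -0.011 with at least 5 CPM in 3 libraries, -0.008 in the 6 libraries alone and -0.002 there with the block. On leaving out 1 library the log2 difference ran from -0.201 to 0.164 for BGL2, with -0.171 without GFP1, from -0.053 to 0.137 for CAT2, with -0.003 without GFP3, from -0.025 to 0.098 for MC1, from -0.029 to 0.492 for ICS1 and from -0.128 to 0.019 for JMJ14. The cause was not tested. Genes with few counts limit the lists, since sparse members could not be tested.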
